A study of Mus musculus with 2 samples.

Results

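The chemokine ligands were taken as all gene rows whose symbol is Ccl, Cxcl, Cx3cl or Xcl followed by digits and at most 1 further letter. This matched 44 of 27998 rows, with 38 different symbols. Chemokines are small secreted proteins that bind G protein-coupled receptors and direct the movement of leukocytes. Inflammatory members are induced through NF-kB or interferon and draw neutrophils, monocytes or T cells, whereas homeostatic members such as Cxcl12 and Ccl21a are made steadily by stromal and lymphatic cells. In the eye, Ccl2 with its receptor Ccr2 and Cx3cl1 with its receptor Cx3cr1 have long been studied in the recruitment and the behaviour of mononuclear phagocytes around the retina.

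The cells came from C57BL/6J mice, from the choroid and the retinal pigment epithelium (RPE) above it. NaIO3 (sodium iodate, an oxidant toxic to the RPE) was given intravenously at 20 mg/kg to 1 group, and the control group received the PBS vehicle in the same volume. The treatment is labelled as 7 days in both groups. Eyes of 6 mice were pooled per group, pigmented hexagonal cells were picked by hand after removal of the anterior parts and the retina, and each pool gave 1 droplet library. No replicate exists, so no difference below has a replicate check, and all intervals are 95% intervals of the counting error alone. The sources used here give neither age nor sex of the mice.

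The PBS library held 51055592 unique molecular identifiers (UMIs, counted RNA molecules) in 4618 barcodes and the NaIO3 library 51168520 in 4058, of which 4218 and 3812 cells were kept. Levels are counts per 1000000 UMIs of the same cells (CPM). Cells were clustered without the chemokine genes and named "-like" from marker genes alone, none of them a chemokine. RPE-like cells were 3407 of the PBS cells (80.8%) and 2164 of the NaIO3 cells (56.8%). Macrophage-like cells were 33 and 459 in the same order, MHC class II antigen-presenting-like cells (MHC class II cells below) were 115 and 43, cells like the surface epithelium of the eye 101 and 700, and fibroblast-like cells 301 and 46. Cluster 9 held 274 NaIO3 cells and 0 PBS cells (exact upper bound 0.0874% of cells) and was given no name. It was led by Fbln2, Cdkn2b, Tagln, Cdkn2a, Cthrc1 and Col1a1, with a median of 24147.5 UMIs per cell. The part of the dissection and the picking in these cell numbers was not tested. The border between the macrophage-like and the MHC class II cells moved with the clustering, so both are also given together, a choice made after the data were seen. The libraries shared 24 barcodes, 21 of them among kept cells.

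Of the 44 rows, 28 had at least 20 UMIs over both libraries and are described below. Another 3 had 9 UMIs (Xcl1, a ligand of cross-presenting dendritic cells), 6 (Cxcl3) and 6 (Cxcl15). The remaining 13 rows had 0 UMIs, namely Ccl1, Ccl20, Ccl26, Ccl27b, Cxcl13, and Ccl21b, Ccl21c and further copies of Ccl19, Ccl21a and Ccl27a, the further copies on scaffolds outside the chromosomes. Values for Ccl19, Ccl21a and Ccl27a are therefore uncertain, since reads can match several copies. Ccl27a also overlaps Il11ra1, Ccl25 overlaps Elavl1, Cxcl10 overlaps Art3, and Cxcl16 overlaps Zmynd15, all on opposite strands, and whether strand was used in counting is not given in the sources used here. Cxcl11 had no row.

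Chemokine UMIs were more frequent in the NaIO3 library, and the classes that held them differed. The family summed to 7897 UMIs in PBS (167 CPM) and 13973 in NaIO3 (289 CPM). In PBS, RPE-like cells held 39.0% of these UMIs, MHC class II cells 22.3% (interval 21.4 to 23.2%), endothelial-like cells 17.0%, fibroblast-like cells 14.5% and macrophage-like cells 3.01%. In NaIO3, macrophage-like cells held 34.2% (33.4 to 35.0%), cluster 9 held 20.3% (19.6 to 21%), RPE-like cells 19%, surface epithelium-like cells 7.53%, MHC class II cells 7.38%, endothelial-like cells 7.19% and fibroblast-like cells 2.45%. Both myeloid classes together went from 25.3% to 41.5% of the family's UMIs. Without Ccl27a and Ccl25 the RPE-like share was 21.7% in PBS and 13.6% in NaIO3.

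**Figure D1:**
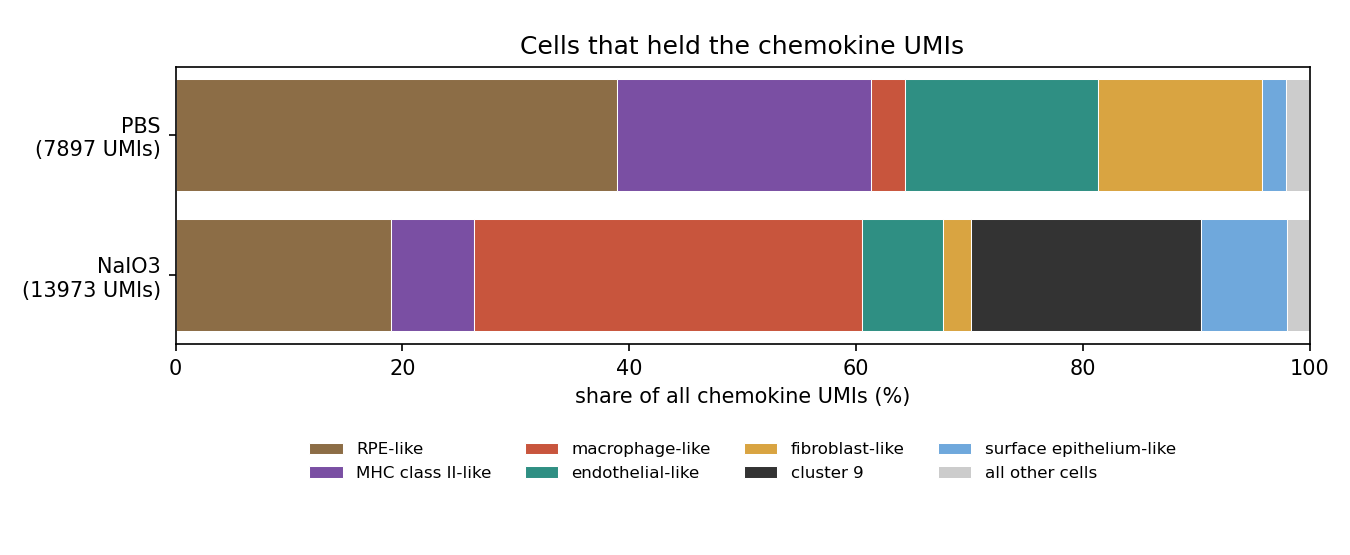
Share of all chemokine UMIs (percent, x axis) held by each cell class in the PBS and the NaIO3 library, as 1 stacked bar per library with 1 colour per class and no error bars. RPE-like cells held the largest share in PBS (39.0%) and macrophage-like cells in NaIO3 (34.2%), and cluster 9 stood only in the NaIO3 library.

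The share of a class reflects its number of cells as well as its level. As CPM within each class, the family stood at 5682 CPM in PBS and 7270 CPM in NaIO3 in endothelial-like cells. Most of that was Ccl21a, 1236 of 1346 UMIs in PBS and 959 of 1005 in NaIO3, 824 of them in 1 cell. Without Ccl21a, Ccl27a and Ccl25 the endothelial-like level was 439 CPM in PBS and 311 CPM in NaIO3. MHC class II cells had 2651 and 3710 CPM, fibroblast-like cells 729 and 835 CPM, and RPE-like cells 73.2 and 105 CPM. In MHC class II cells Ccl5 made up 299 of the 1762 family UMIs in PBS and 584 of 1031 in NaIO3. The higher NaIO3 level of that class thus rests on Ccl5, found in 9 of its 43 NaIO3 cells. The macrophage-like class had 1406 CPM in PBS and 766 CPM in NaIO3, and cluster 9 had 423 CPM. Both myeloid classes together had 2398 CPM in 148 PBS cells and 892 CPM in 502 NaIO3 cells. More myeloid cells at a lower pooled chemokine level per UMI thus made up the larger NaIO3 share. That pooled level also reflects the mix, as MHC class II cells were 115 of the 148 cells in PBS and 43 of the 502 in NaIO3. A median of 3 different chemokines was detected per cell in the macrophage-like cells, MHC class II cells and cluster 9, against 1 in RPE-like cells.

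Each member was ranked over the classes of at least 10 cells. In PBS, 26 members could be ranked, and the highest level was in MHC class II cells for 13, fibroblast-like cells for 5, macrophage-like cells for 4, endothelial-like cells for 2, and mural-like and bipolar-like cells for 1 each. For 15 of the 26 the interval of the leading class lay apart from that of the next. In NaIO3, 22 members could be ranked, 12 of them with the leading class apart. MHC class II cells led for 9, cluster 9 for 4 (Cxcl9, Cxcl10, Cx3cl1 and Ccl17), endothelial-like cells for 4, macrophage-like cells for 3, and fibroblast-like and Muller glia-like cells for 1 each. A myeloid class led for 17 members in PBS and for 12 in NaIO3. Some leads that were not apart rest on very few UMIs. In NaIO3 endothelial-like cells this held for Cxcl1, Ccl25 and Cxcl17, the last at 7.23 CPM (0.183 to 40.3). Surface epithelium-like cells held 83.9% of the Cxcl17 UMIs. The 17 in PBS include Ccl28, led by macrophage-like cells at 5.91 CPM (0.150 to 32.9), while RPE-like cells held 93.75% of its UMIs.

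**Figure D2:**
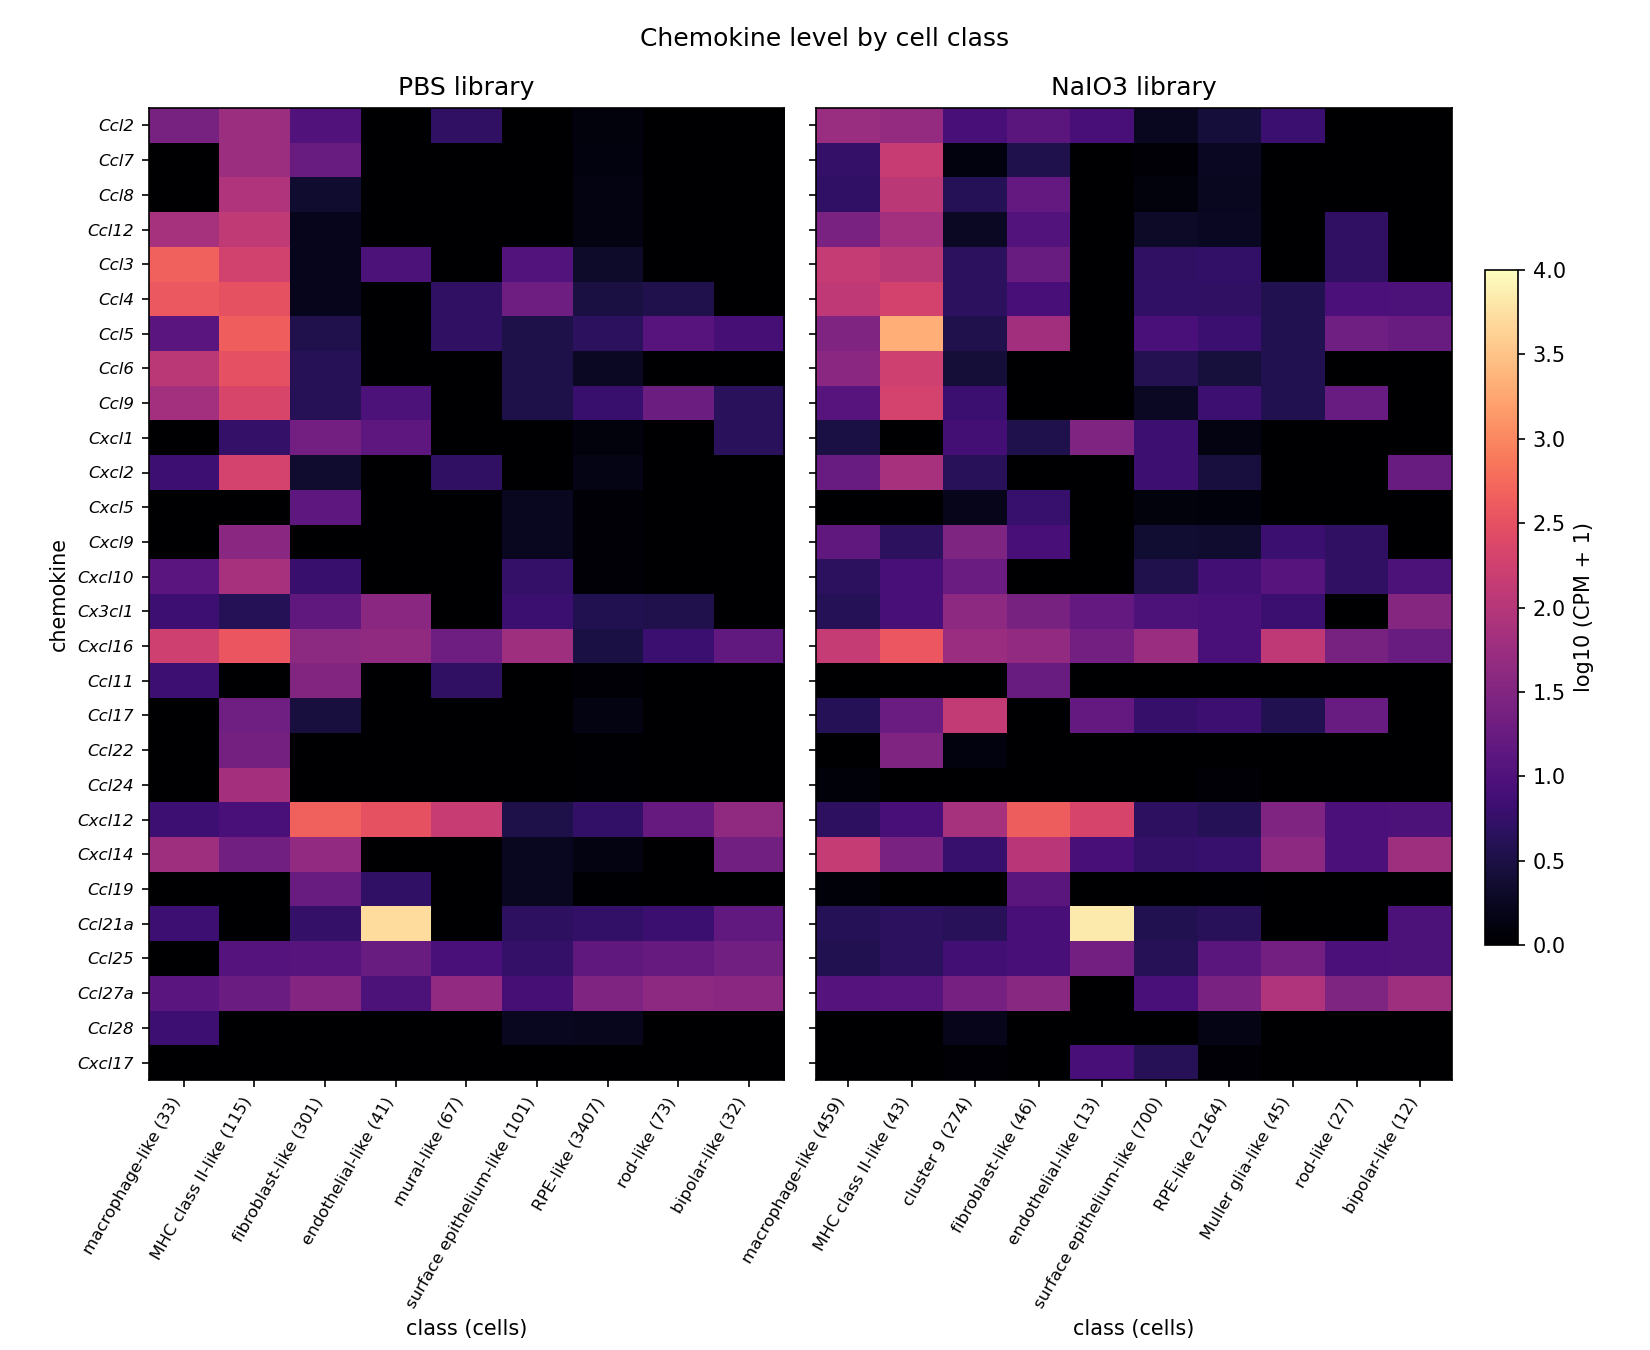
Level of the 28 described chemokines (rows) in cluster 9 and each named class with at least 10 cells (columns, without erythroid-like cells) of the PBS and the NaIO3 library, as log10 of CPM plus 1. The myeloid columns hold most of the inflammatory CC members, Ccl21a stands out in endothelial-like cells (5218 and 6938 CPM), and Ccl17 in cluster 9 (134 CPM).

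Over all kept cells, a member was called higher or lower when its summed count was at least 20, its NaIO3 level was at least 2-fold above or below that of PBS, and the interval of the ratio did not include 1. Of 28 members 12 were higher, where 18.6% of all 15692 genes with such counts were higher, and 4 were lower, where 5.23% were. The median log2 ratio was 0.51 over the members and 0.16 over all genes. The higher members were Ccl17, Cxcl9, Cxcl14, Cxcl17, Ccl2, Cxcl10, Ccl3, Cxcl16, Cx3cl1, Ccl4, Cxcl1 and Ccl5, and the lower ones Ccl24, Ccl11, Ccl19 and Ccl28. A scaling by trimmed means lowered all log2 ratios of whole libraries by 0.15, after which Cxcl1 (log2 ratio 0.998) and Ccl5 (0.95) were just short of 2-fold. In bulk sums of this kind, a change in the number of producing cells and a change in RNA per cell cannot be told apart, and the levels within each class below bear on the second.

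**Figure D3:**
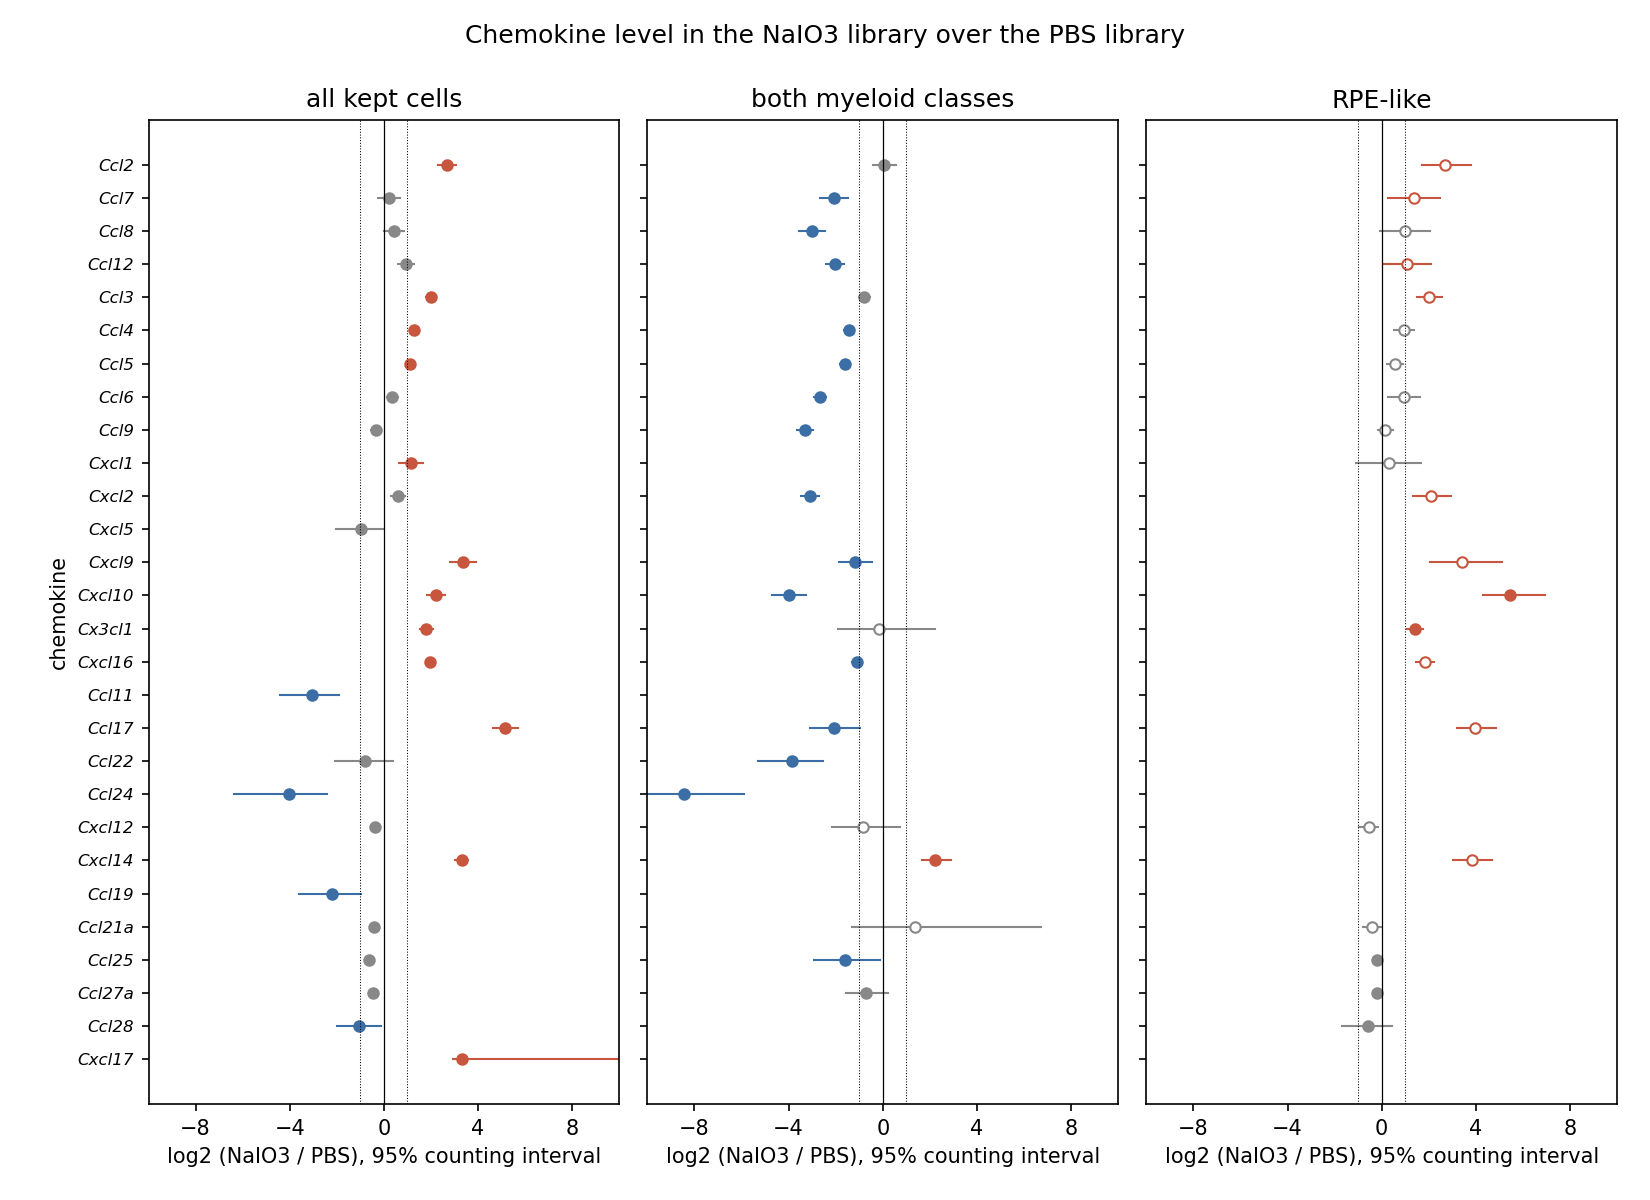
Log2 ratio of NaIO3 over PBS (x axis) for each chemokine (rows) in all kept cells, both myeloid classes together and RPE-like cells, with 95% counting intervals cut at the edges of the axis; dotted lines mark 2-fold, red points were called higher, blue lower and grey neither, and open points were under 10% of the level in the leading class, taken as free RNA. Ccl17 lay farthest to the right over all kept cells (log2 ratio 5.15), Cxcl14 was the 1 member called higher in the myeloid cells, and most red points of RPE-like cells are open.

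The Ccr2 ligands Ccl2, Ccl7, Ccl8 and Ccl12, which draw monocytes, had their highest level in a myeloid class in both libraries, and 1 of the 4 was higher over all cells. Ccl2 had 68 UMIs in PBS and 442 in NaIO3, 1.44 and 9.13 CPM, a ratio of 6.34 (4.91 to 8.32). Macrophage-like cells held 320 of the 442 NaIO3 UMIs, in 79 of 459 cells at 51.4 CPM. In PBS, 13 of 115 MHC class II cells had Ccl2, at 55.7 CPM, and 2 of 33 macrophage-like cells, at 23.6 CPM. Taken over both myeloid classes the Ccl2 level was 49.2 CPM in PBS and 51.2 CPM in NaIO3, a ratio of 1.04 (0.751 to 1.48). The gain of Ccl2 over all cells thus came with more myeloid cells at a level per UMI whose interval included no change. Fibroblast-like cells were a minor source of Ccl2, at 9.58 and 12.2 CPM.

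The other 3 Ccr2 ligands, near Ccl2 on mouse chromosome 11, were not called over all cells. Ccl7 had 77 and 92 UMIs (ratio 1.17, 0.852 to 1.60), Ccl8 76 and 105 (1.35, 0.994 to 1.84) and Ccl12, a further mouse ligand of Ccr2, 111 and 219 (1.93, 1.53 to 2.44). In PBS, MHC class II cells held 37 of the 77 Ccl7 UMIs and fibroblast-like cells 27, of which 24 were in 2 of the 55 cells of cluster 15 (48.3 CPM). In MHC class II cells Ccl7 went from 55.7 to 144 CPM (2.59-fold, 1.61 to 4.16), with 40 UMIs in 5 of 43 NaIO3 cells. Ccl8 stood at 87.3 and 112 CPM in the same class, in 10 of 115 and 4 of 43 cells. Few cells held these transcripts, so a handful of cells set each level. Over both myeloid classes together Ccl7 was lower (44.4 to 10.4 CPM), as were Ccl8 (69.5 to 8.76 CPM) and Ccl12 (113 to 27.7 CPM).

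Among Ccl3, Ccl4, Ccl5, Ccl6 and Ccl9, inflammatory CC chemokines that attract monocytes and lymphocytes, Ccl3, Ccl4 and Ccl5 were higher over all cells and Ccl6 and Ccl9 were not called, 3 of 5 in all. Ccl3 had 263 UMIs in PBS and 1084 in NaIO3 (ratio 4.02, 3.51 to 4.62). Ccl4, its neighbour gene, had 392 and 967 (2.41, 2.14 to 2.71). Within macrophage-like cells both went the other way. Ccl3 was at 455 CPM in PBS (77 UMIs, 18 of 33 cells) and 141 CPM in NaIO3 (877 UMIs, 229 of 459 cells), a ratio of 0.309 (0.245 to 0.396). With each cell thinned to 3000 UMIs, 48.5% (30.8 to 66.5%) of the PBS and 22.2% (18.5 to 26.3%) of the NaIO3 macrophage-like cells had a Ccl3 UMI. In RPE-like cells, which should lack Ccl3, those thinned shares were 0.352% and 1.76%. Ccl4 went from 378 to 120 CPM in the macrophage-like class (0.317, 0.246 to 0.416).

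Ccl6 and Ccl9, a pair of CC chemokines of rodents that act on Ccr1, were highest in MHC class II cells. Ccl6 was at 311 CPM there in PBS and 176 CPM in NaIO3, and Ccl9 at 214 and 198 CPM. In macrophage-like cells Ccl6 went from 112 to 37.1 CPM (ratio 0.330, 0.207 to 0.559) and Ccl9 from 65.0 to 10.6 CPM (0.163, 0.0854 to 0.342). Both were therefore lower in the macrophage-like class, Ccl9 on a PBS count of 11 UMIs. Counts of Ccl6 and Ccl9 went together in the 115 PBS cells of the MHC class II class (Pearson r 0.64), and Ccl3 and Ccl4 did in the 459 NaIO3 macrophage-like cells (r 0.45), where 108 cells had both. Such cells share a library and differ in depth, so these values are descriptions.

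Ccl5, made in quantity by T and natural killer cells, rested on very few cells. It had 469 UMIs in PBS and 1028 in NaIO3 (ratio 2.14, 1.92 to 2.39). The 4 PBS cells and 11 NaIO3 cells with at least 10 UMIs held 60.8% and 70.7% of them. In the MHC class II class the level went from 450 to 2102 CPM (4.67-fold, 4.06 to 5.39). There, 4 PBS cells with at least 3 T or natural killer markers held 255 of 299 Ccl5 UMIs, and 3 such NaIO3 cells held 245 of 584. A single NaIO3 cell with under 3 of those markers held 298 UMIs. Without the cells with at least 3 markers the levels were 67.6 and 1299 CPM and the log2 ratio 4.26 in place of 2.22. The class was therefore not uniform for Ccl5, and its ratio describes those cells.

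Within the macrophage-like class, 18 members had enough counts. Of these 1 was higher, where 1.66% of all genes tested were, and 5 were lower, where 4.85% were. The median log2 ratio was -0.95 over the members and -0.33 over all genes. Ccl3, Ccl4, Ccl6, Ccl9 and Ccl12 (70.9 to 26.0 CPM) were the lower ones. Both macrophage-like clusters entered the class, with 18 and 15 PBS cells against 271 and 188 NaIO3 cells. In the larger, cluster 7, Ccl3 went from 792 to 157 CPM and Ccl4 from 712 to 113 CPM. The 18 PBS cells of that cluster held 69 of the 77 Ccl3 UMIs and 62 of the 64 Ccl4 UMIs of the PBS class. Cluster 11 had under 10 PBS UMIs of each gene and stood at 119 and 129 CPM in NaIO3. The lower Ccl3 and Ccl4 of the class thus rest on those 18 cells. In NaIO3 the other, cluster 11, had more Cxcl16 (206 against 89.7 CPM), Ccl6 (60.6 against 19.8 CPM) and Cxcl2 (31.1 against 5.85 CPM) than cluster 7. Trimmed-mean scaling raised the log2 ratios of this class by 0.19. With other clusterings, which moved more PBS cells into the class, 12 or 14 members were lower, and Ccl3 lost its call when each library was clustered alone (log2 ratio -0.66).

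Over both myeloid classes together, 22 members were tested. Of these 15 were lower, where 13.0% of all genes were, and 1 was higher, where 5.07% were. The median log2 ratio of the members was -1.61, against -0.22 for all genes. The share of MHC class II cells among the myeloid cells was larger in PBS, and that shift and a change of RNA within a cell type cannot be told apart in these sums. Cxcl2 went from 161 to 18.9 CPM (ratio 0.118, 0.0913 to 0.151), Ccl9 from 183 to 18.6 CPM (0.101, 0.0792 to 0.129) and Ccl6 from 271 to 43.0 CPM (0.159, 0.133 to 0.190). Ccl4 went from 333 to 123 CPM (0.369, 0.322 to 0.425) and Ccl3 from 241 to 139 CPM (0.579, 0.496 to 0.678), which was not called. Cxcl14 was the higher one, from 28.8 to 136 CPM (4.71, 3.15 to 7.40). With trimmed-mean scaling, which added 0.23 to the log2 ratios, Cxcl16 (log2 ratio -0.86) and Cxcl9 (-0.95) were no longer called lower.

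**Figure D4:**
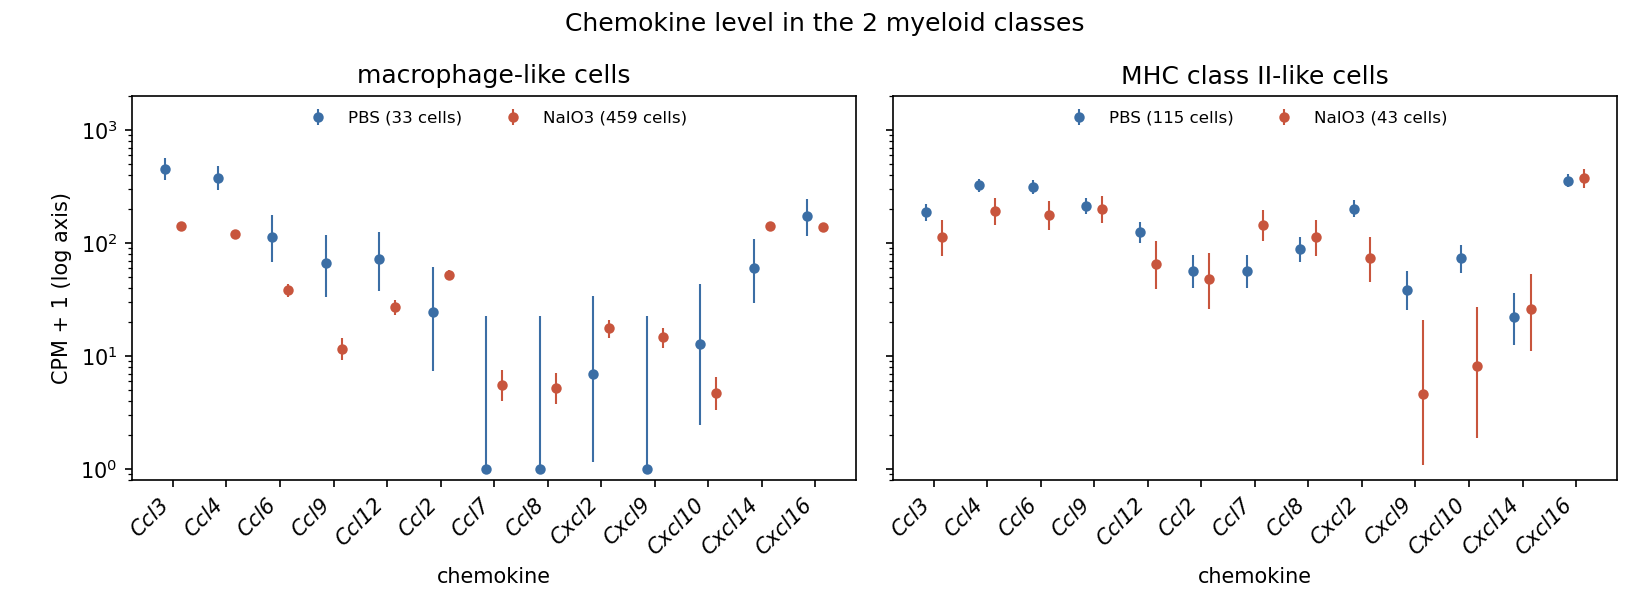
Level of 13 chemokines (CPM plus 1, log axis) in the macrophage-like and the MHC class II cells of the PBS and the NaIO3 library, with exact 95% Poisson intervals. In macrophage-like cells the PBS points of Ccl3, Ccl4, Ccl6, Ccl9 and Ccl12 lie above the NaIO3 points and Cxcl14 lies below; the PBS intervals are wide because they rest on 33 cells.

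The MHC class II class had 16 tested members, of which 2 were higher (Ccl5 and Ccl7), where 5.0% of all genes were, and 4 were lower (Cxcl2, Cxcl9, Cxcl10 and Ccl24), where 5.44% were. Ccl24, also named eotaxin 2, is a ligand of Ccr3 made by alternatively activated macrophages. It had 45 UMIs in 7 of 115 PBS cells (67.7 CPM) and 0 in 43 NaIO3 cells. With a floor of 3 counts there (10.8 CPM) the ratio was 0.159, and its upper limit was 0.204. Over all cells Ccl24 had 48 UMIs in PBS against 3 in NaIO3 (ratio 0.0610, 0.0122 to 0.189). Nearly all of its UMIs were thus in a few PBS cells of this class.

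The ELR+ CXC chemokines Cxcl1, Cxcl2 and Cxcl5 attract neutrophils through Cxcr2, and Cxcl9 and Cxcl10 attract T cells through Cxcr3 after induction by interferon. Because inducible members moved within several classes, the RefSeq promoter table (GRCm38.p6, 250 bases before each start) was searched on both strands for GAAA, any 2 bases and GAAA, letters found in interferon response elements, and for GGG, any 3 bases and TTCC, found in kappaB sites. It held 33 entries for 27 of the 38 symbols. The first motif was in 2.98% of all 32851 entries and in 3 member entries (Cxcl10, Ccl19 and Cxcl14). The second was in 4.65% of all entries and in 7 member entries (Cxcl1, Cxcl2, Cxcl3, Cxcl10, Ccl1, Ccl9 and Ccl20). The 4 CXC members with inducible expression discussed next are shown 5′ to 3′ with matches in capitals. A match is a description of letters, not of binding.
Cxcl10 (chr5:92348890-92349139, minus strand): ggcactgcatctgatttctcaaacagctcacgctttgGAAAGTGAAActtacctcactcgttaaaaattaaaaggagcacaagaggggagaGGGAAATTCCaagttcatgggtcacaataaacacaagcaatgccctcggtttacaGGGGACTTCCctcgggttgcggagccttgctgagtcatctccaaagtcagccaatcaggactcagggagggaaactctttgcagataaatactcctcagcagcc
Cxcl9 (chr5:92328080-92328329, minus strand): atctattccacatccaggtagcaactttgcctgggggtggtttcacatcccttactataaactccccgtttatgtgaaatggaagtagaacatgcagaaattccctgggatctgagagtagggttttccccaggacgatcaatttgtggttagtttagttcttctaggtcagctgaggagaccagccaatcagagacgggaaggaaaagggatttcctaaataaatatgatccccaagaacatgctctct
Cxcl1 (chr5:90890995-90891244, plus strand): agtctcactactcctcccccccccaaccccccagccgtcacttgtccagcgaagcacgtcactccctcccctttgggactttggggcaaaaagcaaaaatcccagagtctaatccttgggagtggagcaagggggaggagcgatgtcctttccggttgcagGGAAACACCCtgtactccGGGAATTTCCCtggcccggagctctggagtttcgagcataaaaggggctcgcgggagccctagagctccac
Cxcl2 (chr5:90903649-90903898, plus strand): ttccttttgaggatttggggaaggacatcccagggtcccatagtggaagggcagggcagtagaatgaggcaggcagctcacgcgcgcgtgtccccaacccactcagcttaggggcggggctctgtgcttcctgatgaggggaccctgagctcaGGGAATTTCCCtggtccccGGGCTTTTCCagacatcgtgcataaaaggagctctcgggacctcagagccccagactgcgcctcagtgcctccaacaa

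In Cxcl10 the interferon-type match lay 213 to 204 bases before the start, and kappaB-type matches lay 159 to 150 and 104 to 95 bases before it. Cxcl1 and Cxcl2 both held GGGAATTTCC, which overlaps its own match on the other strand, GGAATTTCCC, by all but 1 base. Their matches began 71 and 97 bases before the start. The Cxcl9 window held neither string of letters.

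Of the Cxcr3 ligands both with a row were higher over all cells. Cxcl9 had 31 UMIs in PBS and 325 in NaIO3 (ratio 10.2, 7.07 to 15.3), and Cxcl10 had 70 and 332 (4.63, 3.57 to 6.08). In PBS both were mainly in MHC class II cells, Cxcl9 at 37.6 CPM in 2 of 115 cells and Cxcl10 at 72.2 CPM in 4. One PBS cell held 24 of the 31 Cxcl9 UMIs. In NaIO3 the same class had 1 and 2 UMIs (3.60 and 7.20 CPM), while cluster 9 had Cxcl9 at 28.2 CPM (23 of 274 cells) and Cxcl10 at 18.0 CPM (19 cells). For Cxcl10 that level was not apart from the 10.7 CPM (2.90 to 27.3) of Muller glia-like cells, and RPE-like cells held more of its UMIs, 158 against 121. A few cells carried most of the NaIO3 counts: 6 cells with at least 10 UMIs held 65.2% of Cxcl9, and 5 such cells held 60.2% of Cxcl10. Of the 6 Cxcl9 cells, 4 were in cluster 9 and 2 were macrophage-like. All 6 had at least 3 MHC class II markers, and all 6 also had at least 3 macrophage and 3 RPE markers. Among the 5 Cxcl10 cells, 1 had at least 3 MHC class II markers. In the best match of cluster 9 at Leiden resolution 2, Cxcl10 was at 2.07 CPM. Without cluster 9 the log2 ratio over all cells was 2.31 in place of 3.36 for Cxcl9 and 1.77 in place of 2.21 for Cxcl10. Macrophage-like cells had Cxcl9 at 13.6 CPM, in 18 of 459 cells. Both genes were thus in a minority of cells in every class.

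In RPE-like cells Cxcl10 had 6 UMIs in PBS (0.143 CPM) and 158 in NaIO3 (6.26 CPM), a ratio of 43.9 (19.7 to 121). The NaIO3 UMIs were not spread over the class. Cluster 13, a group of 114 RPE-like NaIO3 cells led by interferon-induced genes, held 141 of the 158, in 15 cells, at 95.5 CPM (80.4 to 113). Without that cluster the log2 ratio was 2.33 in place of 5.46. Cxcl9 in RPE-like cells, at 0.119 and 1.27 CPM, was under 10% of the level in the leading class.

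Cxcl1 was held mainly by different classes in PBS and NaIO3, each time in few cells. It had 52 UMIs in PBS and 118 in NaIO3 (ratio 2.21, 1.59 to 3.13). Fibroblast-like cells held 33 of the PBS UMIs (21.1 CPM, 12 of 301 cells) and 1 NaIO3 UMI (2.44 CPM), a ratio of 0.116 (0.00285 to 0.692). In NaIO3, surface epithelium-like cells held 46 UMIs in 12 of 700 cells, against 0 in 101 PBS cells. Against a floor of 3 counts that was 2.48-fold higher (lower limit 1.93). Cluster 9 held 45 in 19 of 274 cells (6.70 CPM). The spread between cells is not in these intervals, and a change of source was not tested. Without cluster 9 Cxcl1 was no longer called over all cells (log2 ratio 0.67). Cxcl2 had 156 and 242 UMIs (1.51, 1.23 to 1.86). MHC class II cells had it at 200 CPM in PBS (24 of 115 cells) and 72.0 CPM in NaIO3 (4 of 43 cells), a ratio of 0.360 (0.213 to 0.578), and macrophage-like cells had 1 UMI in PBS and 103 in NaIO3 (16.5 CPM). Cxcl5, with 27 and 14 UMIs, was fibroblast-like in PBS (12.8 CPM).

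The membrane-bound chemokines Cx3cl1 and Cxcl16, which are cut free by the proteases Adam10 and Adam17, were both higher over all cells, 2 of 2. Cxcl16, the ligand of Cxcr6 and a scavenger receptor, had 512 UMIs in PBS and 2037 in NaIO3 (ratio 3.88, 3.52 to 4.29). Within the classes compared it was at 355 and 374 CPM in MHC class II cells (80 of 115 and 31 of 43 cells), at 171 and 139 CPM in macrophage-like cells (14 of 33 and 316 of 459), and at 58.6 and 53.5 CPM in surface epithelium-like cells. Those ratios were 1.05 (0.829 to 1.33), 0.811 (0.561 to 1.22) and 0.913 (0.715 to 1.18). In NaIO3 the Muller glia-like cells had 122 CPM and cluster 9 had 54.1 CPM in 160 of 274 cells. None of these was called, while over both myeloid classes together Cxcl16 was lower, 318 and 149 CPM (0.469, 0.409 to 0.539). In RPE-like cells its 2.09 and 7.49 CPM were under 10% of the level in the leading class.

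Cx3cl1 had 158 UMIs in PBS and 566 in NaIO3 (ratio 3.50, 2.93 to 4.2). In PBS the highest level was in endothelial-like cells, 38.0 CPM in 7 of 41 cells, and fibroblast-like cells had 13.4 CPM. In NaIO3 cluster 9 had 39.8 CPM in 115 of 274 cells, and without it the log2 ratio over all cells was 1.10 in place of 1.81. RPE-like cells went from 117 UMIs (2.78 CPM) to 188 (7.45 CPM), a ratio of 2.68 (2.11 to 3.4), with 1.09% of cells holding a Cx3cl1 UMI in PBS and 1.99% in NaIO3 after thinning to 3000 UMIs. The NaIO3 level was above the free RNA limit used here, 10% of that in the highest class, and under a limit of 20%. The PBS level was under the 10% limit, so by that rule the ratio starts from a level taken as free RNA. In PBS the limit rested on the endothelial-like level, with an interval of 17.4 to 72.1 CPM. RPE-like cells held 74.1% of the PBS Cx3cl1 UMIs, and their 2.78 CPM lay near the library mean of 3.34 CPM. Whether this PBS level was free RNA was not tested. Its receptor Cx3cr1 was in 22 of 33 PBS and 382 of 459 NaIO3 macrophage-like cells.

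Cluster 9 was the main source of Ccl17 in these libraries. Ccl17, a ligand of Ccr4 best known from dendritic cells, had 31 UMIs in PBS and 1131 in NaIO3 (ratio 35.6, 24.9 to 52.7). Cluster 9 held 902 of the 1131, 79.8%, at 134 CPM (126 to 143) in 129 of 274 cells. The transcripts were unevenly spread: 29 cells with at least 10 UMIs held 56.9% of the NaIO3 total, and the highest cell had 106. Thinned to 3000 UMIs, 19% (14.5 to 24.1%) of cluster 9 cells and 1.62% (1.13 to 2.24%) of NaIO3 RPE-like cells had a Ccl17 UMI. MHC class II cells had 19.6 CPM in PBS and 18.0 CPM in NaIO3. Without cluster 9 the log2 ratio over all cells was 3.07 in place of 5.15.

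The cells of cluster 9 had RPE markers at 16617 CPM, 20.2% of the level in RPE-like cells. In the other named NaIO3 classes of at least 10 cells that share ran from 8.70% (macrophage-like) to 61.3% (bipolar-like). It was 30.1% in fibroblast-like cells, so the share alone does not set cluster 9 apart from classes that are not RPE-like. Cluster 9 cells had fibroblast markers, all 9 of them detected, at 13.2% of the highest class. Their mural markers stood at 1845 CPM, against 21550 CPM in PBS mural-like cells. That was the highest of the NaIO3 classes of at least 10 cells, which leaves out the 2 NaIO3 mural-like cells. Macrophage markers were at 2.77% of the highest class, and MHC class II markers at 0.18%, with Cd209a, Flt3 and Clec10a at 0. Cells with a Ccl17 UMI differed little in these from those without: 1452 and 1536 CPM of macrophage markers, and 78.5 and 82.3 CPM of MHC class II markers. Their RPE markers were at 13537 CPM, against 19929 CPM in cells without Ccl17. The high depth of cluster 9 raises the share of cells in which any gene is seen, and its part beyond the thinned shares was not tested.

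**Figure D5:**
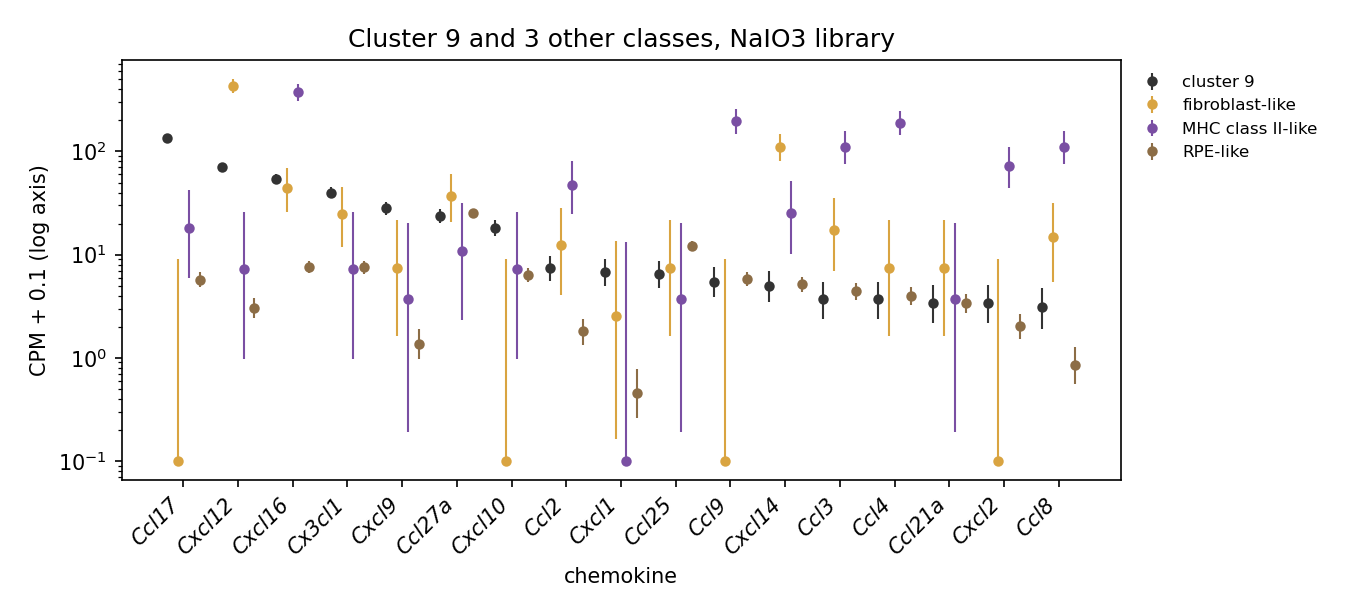
Level of 17 chemokines (CPM plus 0.1, log axis) in cluster 9 and in the fibroblast-like, MHC class II and RPE-like cells of the NaIO3 library, with exact 95% Poisson intervals. Ccl17 (134 CPM), Cx3cl1 (39.8 CPM) and Cxcl9 (28.2 CPM) are highest in cluster 9, Cxcl12 in fibroblast-like cells (434 CPM), and Cxcl16 in MHC class II cells (374 CPM).

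Ccl17, Cx3cl1 and Ccl22 are neighbours on chromosome 8 (GENCODE M21 on mm10), Ccl22 at chr8:94745590-94751699, Cx3cl1 at chr8:94772009-94782427 and Ccl17 at chr8:94810453-94812036. Ccl22, the other Ccr4 ligand of this locus, had 17 and 10 UMIs and stood at 0.298 CPM in cluster 9, against 28.8 CPM in NaIO3 MHC class II cells. In cluster 9, 59.7% of the cells with Ccl17 and 26.2% of those without had a Cx3cl1 UMI, at median depths of 25695 and 21703 UMIs. Over the 274 cells the Pearson correlation of Ccl17 and Cx3cl1 was 0.44 (Spearman 0.43), and that of Cxcl9 and Cxcl10 was 0.41. All these cells share a library and the values are descriptions. The upstream windows of the pair, shown because both genes had their highest level in cluster 9 in NaIO3, held neither motif. For Cx3cl1 that lead was not apart from bipolar-like cells (33.7 CPM, 9.18 to 86.2). The Cx3cl1 window lies before the RefSeq start, and most of it lies inside the GENCODE gene, which starts at chr8:94772009.
Ccl17 (chr8:94810203-94810452, plus strand): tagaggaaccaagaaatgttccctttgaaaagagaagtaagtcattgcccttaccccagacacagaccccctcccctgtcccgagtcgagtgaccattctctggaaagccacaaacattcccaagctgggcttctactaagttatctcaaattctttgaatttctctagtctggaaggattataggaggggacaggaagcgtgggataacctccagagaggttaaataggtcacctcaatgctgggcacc
Cx3cl1 (chr8:94771930-94772179, plus strand): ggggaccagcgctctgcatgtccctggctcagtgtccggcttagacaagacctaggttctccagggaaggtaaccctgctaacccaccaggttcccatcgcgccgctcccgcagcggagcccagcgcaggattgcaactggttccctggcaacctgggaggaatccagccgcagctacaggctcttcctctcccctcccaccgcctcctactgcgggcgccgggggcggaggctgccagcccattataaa

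The other ligands of Ccr3, Ccr4 and Ccr8 were few. Of 4 tested members of this list, Ccl17 was higher and Ccl11 and Ccl24 were lower over all cells. Ccl11, or eotaxin, which draws eosinophils, had 56 UMIs in PBS and 7 in NaIO3 (ratio 0.122, 0.0469 to 0.268). Its source was fibroblast-like, 49 of the 56 and all 7. Within that class it was at 31.3 CPM and then 17.1 CPM, which was not called (ratio 0.546, 0.209 to 1.21), beside a drop from 301 to 46 fibroblast-like cells. None of Ccr3, Ccr4 and Ccr8 had a UMI in either library.

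Among the homeostatic members, Cxcl14 was higher, Ccl19 and Ccl28 were lower, and 4 of the 7 tested were not called. Cxcl14, a chemokine of epithelia and stroma without a settled receptor, had 114 UMIs in PBS and 1152 in NaIO3 (ratio 9.86, 8.13 to 12.1). Macrophage-like cells held 876 of the NaIO3 UMIs in 276 of 459 cells, at 141 CPM against 59.1 CPM in PBS, where 6 of 33 cells had it (2.38, 1.29 to 4.98). After thinning to 3000 UMIs, 18.2% (6.98 to 35.5%) of PBS and 29.2% (25.1 to 33.6%) of NaIO3 macrophage-like cells had a Cxcl14 UMI, and those intervals overlap. Cxcl14 lost its call in this class at Leiden resolution 2, without doublet removal and at a mitochondrial limit of 10%. In fibroblast-like cells it went from 43.4 to 110 CPM (2.53, 1.70 to 3.74), with 45 NaIO3 UMIs in 6 of 46 cells. Cluster 21, a fibroblast-like cluster of 26 PBS cells, had it at 457 CPM in 21 of them.

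Cxcl12, which holds cells bearing Cxcr4 in place, had its highest levels in fibroblast-like and endothelial-like cells in both libraries. It had 1037 UMIs in PBS and 826 in NaIO3 (ratio 0.777, 0.709 to 0.853). Fibroblast-like cells had 456 and 434 CPM (0.952, 0.803 to 1.12), in 177 of 301 and 27 of 46 cells. Endothelial-like cells had 325 and 210 CPM, PBS mural-like cells 144 CPM, and cluster 9 had 70.2 CPM in 131 of 274 cells. The level within fibroblast-like cells thus changed by less than its counting error, while cluster 9 held most of the NaIO3 UMIs, 471 of the 826 (57.0%), against 178 in fibroblast-like and 29 in endothelial-like cells.

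Ccl21a, the Ccr7 ligand of lymphatic vessels and lymph nodes, was high in a few endothelial-like cells. It had 1441 and 1113 UMIs (ratio 0.754, 0.697 to 0.816). Endothelial-like cells had 5218 CPM in PBS and 6938 CPM in NaIO3, in 12 of 41 and 4 of 13 cells, and the highest cells held 318 and 824 UMIs. Cells with at least 2 lymphatic markers had 9637 CPM in PBS (12 cells) and 10308 CPM in NaIO3 (8 cells). The remaining endothelial-like cells had 2079 CPM in PBS (29 cells) and 0 UMIs in NaIO3 (5 cells). A single cell thus carried most of the NaIO3 value.

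Ccl19, the other Ccr7 ligand, had 31 UMIs in PBS and 7 in NaIO3 (ratio 0.22, 0.0819 to 0.510) and was fibroblast-like, at 17.2 and 12.2 CPM (0.708, 0.213 to 1.86). Ccl27a, a skin chemokine that acts on Ccr10, had 1340 and 1010 UMIs (0.736, 0.677 to 0.799). It was spread over nearly all classes, RPE-like cells having 29.0 and 25.3 CPM and the Muller glia-like cells of the NaIO3 library 87.9 CPM. Ccl25, the Ccr9 ligand of thymus and gut, was as widely spread, at 13.6 and 12 CPM in RPE-like cells (0.883, 0.765 to 1.02). Ccl28, a mucosal chemokine, had 30 of its 32 PBS UMIs and 12 of its 16 NaIO3 UMIs in RPE-like cells. Its ratio was 0.488 (0.25 to 0.916) over all cells and 0.666 (0.311 to 1.34) within RPE-like cells, which was not called.

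Cxcl17, a mucosal chemokine of epithelia, had 0 UMIs in PBS and 31 in NaIO3, 10.1-fold higher against a floor of 3 counts (lower limit 7.72). Surface epithelium-like cells held 26 of the 31, in 19 of 700 cells at 3.20 CPM. In that class the PBS library had 0 UMIs in only 101 cells. The ratio there, again against the floor, was 1.40 (lower limit 1.06) and was not called. Of 16 tested members in surface epithelium-like cells, 4 were higher, where 8.0% of all genes were, and 2 were lower, where 4.34% were. Apart from Cxcl1 they were under 10% of their leading class, namely Cxcl2, Ccl5 and Ccl17 among the higher and Ccl3 and Ccl4 among the lower. Ccl5 and Ccl17 stood at 35.3% and 20.5% of their NaIO3 library mean. Cxcl2, at 46 UMIs in 15 of 700 NaIO3 cells, stood at 113% of its own. In PBS Ccl3 had 13 UMIs in 5 cells and Ccl4 had 25 in 6 cells, 178% and 229% of the library mean.

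In RPE-like cells, the largest class, 22 members were tested. Of these 11 were higher, where 11.3% of all genes were, and 0 were lower, where 2.52% were. The median log2 ratio was 1.02 over the members and 0.17 over all genes. However, 17 of the 22 were under 10% of their level in the leading class, which was taken as the level of free RNA in the droplets. Macrophage markers, which RPE cells should lack, were in RPE-like cells at 27.9% of the library mean in PBS and 22.4% in NaIO3. Cxcl16 stood there at 19.3% and 17.8% of its library mean, Ccl3 at 19.2% and 19.3%, Ccl2 at 18.2% and 18.7%, and Cxcl14 at 14.8% and 21.2%. Others stood further above the marker share, Ccl9 at 62.6% and 87.2% (216 of its PBS UMIs were in RPE-like cells) and Ccl17 at 54.4% in PBS and 24.1% in NaIO3. The limit was applied to the library with the higher level. Ccl27a, Ccl25 and Ccl28 were above it and were not called. Cxcl10 and Cx3cl1 were above it in NaIO3, where they were high, and under it in PBS, so that choice fixed their direction and their being higher is a description.

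Within fibroblast-like cells 13 members were tested. Of these 2 were higher (Cxcl14 and Ccl5), where 3.77% of all genes were, and 2 were lower (Cxcl1 and Ccl7), where 2.55% were. Ccl5 there was 26 UMIs in 2 of 46 NaIO3 cells, 63.5 CPM against a library mean of 21.2 CPM. T or natural killer markers in the class were at 327% of their NaIO3 library mean, and their part in this value was not tested. Ccl7 went from 27 UMIs in 4 PBS cells (17.2 CPM) to 1 (2.44 CPM), a ratio of 0.142 (0.00346 to 0.859). Cxcl12, Cxcl16, Ccl2, Ccl11, Ccl19, Cxcl5, Cx3cl1, Ccl25 and Ccl27a were not called.

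The receptors were read from a list of 23 receptors and decoys, of which 16 had enough UMIs over all cells, 8 were higher, where 18.6% of all genes were, and 1, the decoy Ackr4, was lower (ratio 0.256, 0.119 to 0.505), where 5.23% were. Cx3cr1, the receptor of Cx3cl1, had 300 and 2246 UMIs (7.31-fold, 6.48 to 8.27) and Cxcr4, the receptor of Cxcl12, 33 and 401 (11.9-fold, 8.31 to 17.5). Both had their highest level in macrophage-like cells, Cx3cr1 at 479 and 297 CPM and Cxcr4 at 53.2 and 46.2 CPM. Ccrl2, Ccr7, Ccr9, Cxcr2, Cxcr3 and Cxcr6 were the other higher ones. Ccr2, the receptor of Ccl2, was in MHC class II cells, at 108 CPM in 24 of 115 PBS cells and 144 CPM in 18 of 43 NaIO3 cells. The decoy Ackr3, which removes Cxcl12, was in RPE-like cells at 29.7 and 40.8 CPM, in 781 of 2164 NaIO3 cells.

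Inducers of chemokines and genes that respond to interferon were read from lists as well. Of the interferon-induced genes, a list made to find the interferon-led cluster, 8 of 8 were higher over all cells. Of the interferon regulators 5 of 8 tested were higher, and of the NF-kB and inflammatory genes 3 of 10 (Nfkb2, Nfkbiz and Il1a), where 18.6% of all genes were higher. Ifnb1 had 0 UMIs in both libraries, and Ifng had 2 in PBS and 5 in NaIO3. Tnf, which induces Cxcl1 and Ccl2 in many cells, was at 94.5 CPM in PBS macrophage-like cells (16 UMIs, 7 of 33 cells). In NaIO3 macrophage-like cells it was at 10.4 CPM (65 UMIs, 50 of 459 cells). Over all cells Tnf was not called (ratio 1.36, 1.07 to 1.74). The protease Adam17 had 502 and 1154 UMIs (2.24-fold, 2.02 to 2.50), while Adam10 was not called.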

How the data were processed

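Cells of the mouse RPE and choroid were measured by droplet single-cell RNA sequencing in 1 library per group (PBS, NaIO3), on the 10x Genomics platform per the labels' protocols. The matrices that the authors deposited hold raw UMI counts. Per the submitters' processing notes the authors used Cell Ranger 3.0.2 and mm10. The sources used here do not give annotation, strand setting or cell calling.

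A barcode needed 500 detected genes and no more than 25% of mitochondrial UMIs, and 231 PBS and 114 NaIO3 barcodes failed. The barcodes with the highest Scrublet doublet scores were then taken out (171 and 132, a share that grew with the number of barcodes), since the automatic threshold marked 0 and 8. Log values of counts scaled to 10000 were used, and 2000 variable genes without the chemokines, 30 principal components, 15 neighbours and Leiden clustering at resolution 1 gave 25 clusters (scanpy 1.11.5). Both libraries were clustered together without integration. Names needed a mean log2 fold of at least 1 and at least 3 markers at 2-fold over the median cluster, no more markers of another class among the 10 leading genes, and fewer than 3 cell division genes there, a rule added after the data were seen.

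UMIs were summed per class and library. With 1 library per group no test is possible, so Poisson, Clopper-Pearson and conditional binomial 95% intervals are given, and these and the floor of 3 counts cover counting error only. Thinned shares use 3000 UMIs per cell, and 8 shallower PBS cells were left out. Members with at least 20 UMIs are described, with a call past 2-fold. The calling script was checked on simulated counts. Trimmed-mean scaling was by edgeR 4.0.16. Alternatives were the inclusion of chemokines in clustering, resolutions 0.5 and 2, separate clustering, no doublet removal, a mitochondrial limit of 10%, trimmed-mean scaling, other count minimums and free RNA limits, and the left-out clusters or cells named in the text. The members and lists were chosen with earlier results of these data known. Some genes of these lists are not reported here.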

Additional observations from a re-analysis of the deposited data

Results flagged for a closer look

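A set of 3 chemokines (Cxcl10, Cxcl1 and Ccl7) went in opposite directions in different classes. Each rests on 1 library per group, and the difference between the classes was not tested. Only values above the free RNA limit in the library with the higher level were considered. Cxcl10 had a log2 ratio of NaIO3 over PBS of 5.46 in RPE-like cells and -3.33 in MHC class II antigen-presenting cells, the latter on 2 NaIO3 UMIs. In RPE-like cells Cxcl10 was under the limit in PBS (0.143 CPM), so that choice fixed its direction. Of its 158 NaIO3 UMIs there, 141 were in 15 cells of cluster 13. Cxcl1 had a log2 ratio of 1.31 in surface epithelium-like cells, where 0 PBS UMIs were set to the floor of 3 counts. It was -3.11 in fibroblast-like cells, where the NaIO3 library had 1 UMI. Ccl7 had a log2 ratio of 1.37 in MHC class II cells, on 40 NaIO3 UMIs in 5 cells, and -2.82 in fibroblast-like cells, again on 1 NaIO3 UMI.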

How the results depend on the processing

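No paired analysis was possible because each group is 1 library. The division of the myeloid cells depended on the clustering. The share of chemokine UMIs in PBS MHC class II cells, 22.3% as reported, was 7.98% with chemokines among the variable genes, 7.76% at resolution 0.5, 0% with each library clustered alone and 24.3% at a mitochondrial limit of 10%. That of PBS macrophage-like cells, 3.01%, was 17.4%, 17.6% and 25.4% in the first 3 of these and 2.59% without doublet removal. In NaIO3 the MHC class II share was 6.08%, 5.32%, 5.83% and 8.90%, and the macrophage-like share 36.2%, 36.2%, 36.0% and 37.9%, in the same order. Both together went to 27.2% in PBS and 46.8% in NaIO3 at the mitochondrial limit of 10% and stayed within their intervals otherwise. In those first 3 clusterings MHC class II cells led for 4, 5 and 0 PBS members and macrophage-like cells for 13, 12 and 15. In NaIO3 macrophage-like cells led for 9, 5 and 8, fibroblast-like cells for 2, 2 and 4, and MHC class II cells for 2 (chemokines kept) and 3 (each library alone). The lower members in macrophage-like cells were 12, 12 and 14, and the higher ones 3 and 3 in the first 2 and 0 at resolution 2, without doublet removal and at the mitochondrial limit of 10%.

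The RPE-like share was 35.9% in PBS at resolution 0.5, 34.8% in PBS and 11.1% in NaIO3 at the mitochondrial limit of 10%, and 15.8% in NaIO3 when clustered alone. The best match of cluster 9 held 9.96% at resolution 2 (123 cells) and 19.2% when clustered alone. Members higher in RPE-like cells above the free RNA level were 1 at the mitochondrial limit of 10%, with a free RNA limit of 20% and without the interferon-led cluster. Members lower over all cells were 2 with at least 50 UMIs. The cause of these shifts was not tested. No value changed sign where it had been called. The other 164 values for these comparisons stayed within their interval or within 1.5 times the reported count. Few cells limit the PBS macrophage-like values (33 cells) and the NaIO3 endothelial-like values (13 cells).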
